A study of Rattus norvegicus with 48 samples.

Results

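Preneoplastic nodules of rat liver that the labels call KRT-19-positive, with no triiodothyronine (T3) named in their titles, were compared with control liver across the whole array. The 18 arrays of the comparison, 10 of KRT-19-positive nodules and 8 of control liver, were taken by title from the 48 arrays of the series. A further 10 arrays of KRT-19-negative nodules were used to test where the KRT-19-positive nodules differed from other nodules. The arrays of KRT-19-positive nodules given T3 were not compared. They entered the normalisation, the choice of probes and the estimate of the spread. All RNA came from liver of male Fischer rats. The labels give no age, no account of how the nodules were induced or whether controls received the same agents, and no statement that a sample was a single nodule or that samples came from separate animals. The p-values therefore cover only how these samples scatter, and that scatter may be technical.

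Preneoplastic nodules are outgrowths of altered hepatocytes that precede carcinoma in rats exposed to liver carcinogens. They are classically known for a high level of the placental glutathione transferase and for a shift in drug metabolism, with more conjugation and export and less oxidation by cytochromes P450. Keratin 19, the protein that names the group, is a filament of bile duct and progenitor cells that adult hepatocytes normally lack.

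RNA was measured on 1-colour bead arrays, on which the brightness of a probe reports the labelled RNA bound to it. Levels below are normalised log2 intensities, on which a difference of 1 is a 2-fold difference, and the highest value that normalisation left to any probe was 15.27. Between 9424 and 10695 of 22523 probes were above background on KRT-19-positive arrays, against 8744 to 9682 on control arrays. Nodule arrays 1 to 5 differed from nodule arrays 6 to 10 by 363 features, and control arrays 1 to 4 differed from control arrays 5 to 8 by 666 features, so the title numbers may follow a batch that the labels do not name. The number of arrays limits the precision. Krt19 itself lay between 11.03 and 12.73 in KRT-19-positive nodules and between 5.67 and 7.94 in control liver, as the labels state, and its difference is no finding. The summed log2 level of 5 hepatocyte markers was 16.39 to 17.09 in KRT-19-positive nodules and 16.23 to 16.98 in control liver. Of these 5 markers 1 was higher and 1 lower. A sum can exceed the highest value of a single probe, and faint markers such as Hnf4a add little to it. Bright markers such as Alb and Ttr, close to the highest value in both groups, weigh most, and the share of hepatocytes was not tested.

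Differences from control liver were widespread and went both ways. Of 11558 features tested (8223 named genes and 3335 unnamed probes), 5629 (48.7%) were called at a limma adjusted p under 0.05, namely 2868 (24.8%) that were higher in KRT-19-positive nodules and 2761 (23.9%) that were lower. A difference of at least 2-fold was called for 1348 features (11.7%), of which 767 (6.64%) were higher and 581 (5.03%) lower. All 10 nodule arrays lay above all 8 control arrays for 992 features (8.58%) and below them for 841 (7.28%). The split into higher and lower depends on the scaling. Quantile normalisation gave 51% higher among the called features with a median of -0.03 over all features, whereas scaling by the array median gave 78.1% higher with a median of 0.22, so that small differences are relative to that shift. In the text, a gene said to be higher, lower, up or down passed the threshold, and each value in brackets after a gene is the log2 difference, KRT-19-positive nodules minus control, unless another quantity is named. Of the genes named, 42 were above background on some control arrays only, and their differences depend on the background more than others do.

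**Figure D1:**
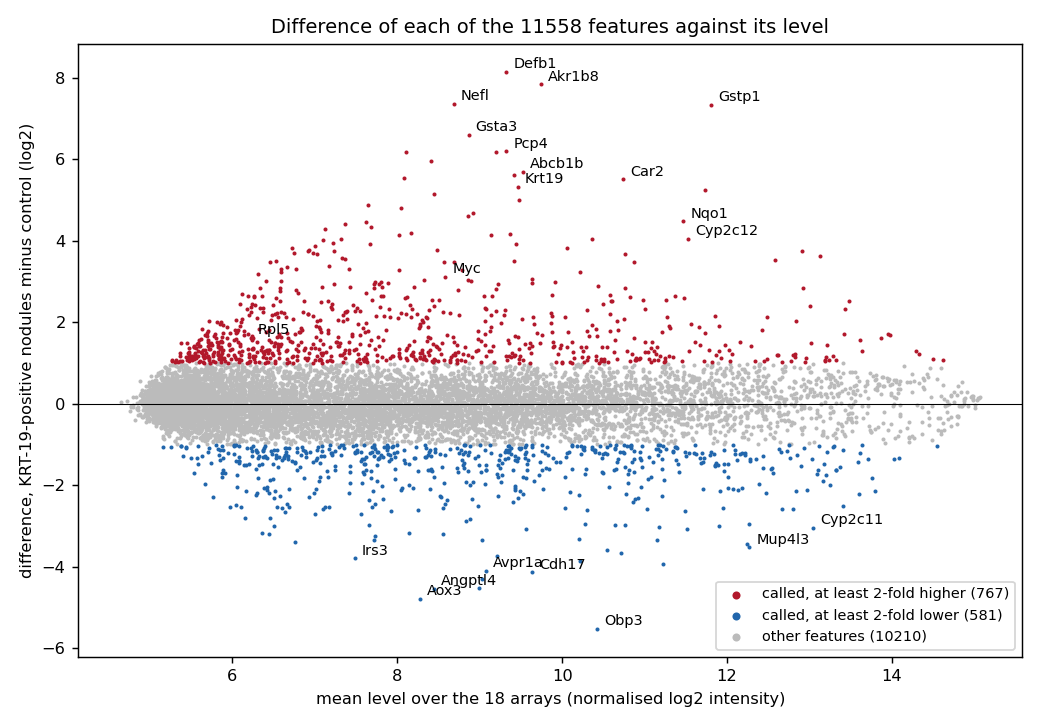
Difference between KRT-19-positive nodules (n = 10) and control liver (n = 8) on the log2 scale against the mean log2 intensity of the 18 arrays, 1 point for each of 11558 features, with those called and at least 2-fold higher (767) in red and lower (581) in blue. Genes not above background in control, such as Defb1 and Nefl, are drawn at fitted differences that depend on the background, and the falls reached -5.53 for Obp3.

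The largest rises joined genes of quite different roles. Defb1, an antimicrobial peptide of epithelia, had levels of 12.18, 12.95 and 13.44 (lowest, median and highest) in KRT-19-positive nodules, against 4.62, 4.73 and 5.14 in control liver, where it was above background on no array, and was at least 180-fold higher (adjusted p = 1.54e-13). Akr1b8, an aldo-keto reductase that clears reactive aldehydes, had 12.78, 13.20 and 13.79 in the nodules, against 5.00, 5.38 and 5.89 in control liver, where 4 arrays were above background (7.84 ± 0.60, SE; adjusted p = 9.47e-16). For both genes the lowest nodule array was thus far above the highest control array. Nefl, the light subunit of neuronal intermediate filaments, had 10.49, 11.95 and 13.30 in the nodules, against 4.49, 4.55 and 4.88 in control liver, and was at least 91.1-fold higher (adjusted p = 1.09e-13). Nefl spread over almost 3 log2 units among the nodules, more than Defb1 or Akr1b8, yet no array came near control. Pcp4, a regulator of calmodulin, had 11.11, 12.19 and 12.64 in the nodules, against 5.64, 5.69 and 6.32 in control liver (6.19 ± 0.51).

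Several of the largest rises were of genes with no role in drug metabolism. Car2, a carbonic anhydrase, had 12.61, 13.13 and 14.10 in KRT-19-positive nodules, against 7.10, 7.67 and 8.45 in control liver (5.51 ± 0.28). Tceal9 (5.00), Agtpbp1 (4.80), which removes glutamates from tubulin, Tubb6 (4.69), a beta-tubulin, and Ctse (4.60), an aspartic protease of endosomes, were higher as well. Pla2g7, a secreted enzyme that inactivates platelet-activating factor, had 8.35, 9.72 and 11.86 in the nodules, against 4.76, 4.94 and 5.14 in control liver, where no array was above background, and was at least 20.8-fold higher. Fabp4, the fatty acid carrier of adipocytes and macrophages, had 9.24, 9.66 and 10.12 in the nodules, against 4.76, 5.19 and 5.46 in control liver, where 1 array was above background (4.45 ± 0.21). In each of these genes the 2 groups of arrays did not overlap, which was a condition of their being chosen.

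**Figure D2:**
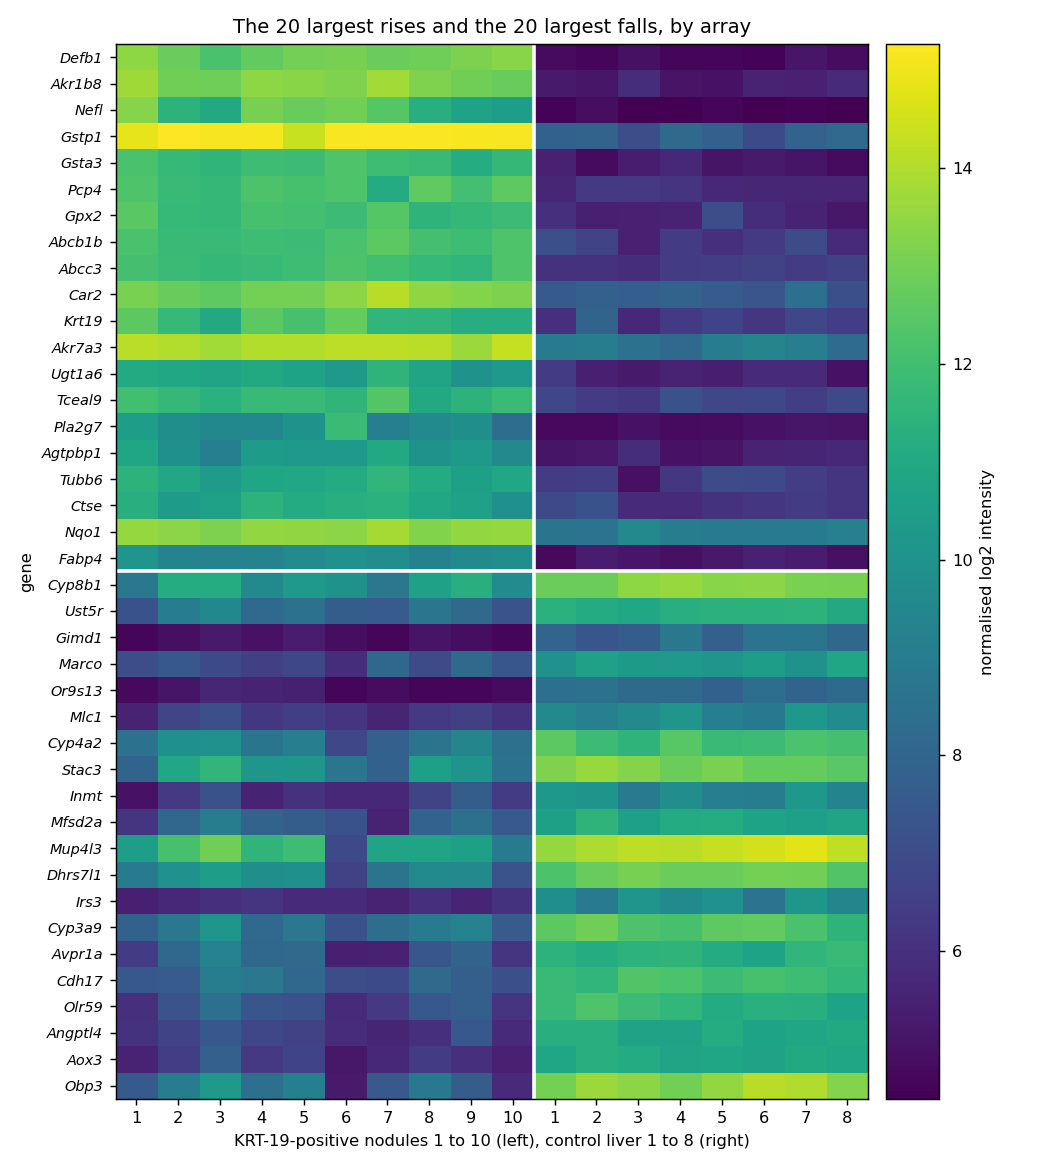
Normalised log2 intensity of the 20 largest rises (upper block) and the 20 largest falls (lower block, largest at the bottom) among named genes whose arrays did not overlap, with KRT-19-positive nodules 1 to 10 on the left and control liver 1 to 8 on the right. Each row changes colour at the line between the groups, and Obp3, Mup4l3 and Avpr1a vary most among the nodules.

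Enzymes that conjugate and reduce foreign compounds were mostly higher in KRT-19-positive nodules. Of 20 measured glutathione transferases 12 were higher, 1 lower and 7 did not pass (median 0.76, against -0.03 for all features). Gstp1, the placental form, had 14.35, 15.15 and 15.27 in the nodules, against 6.93, 7.86 and 8.23 in control liver, and its highest nodule array reached the top of the scale, so a larger difference would not show. Gsta3, an alpha-class transferase, had 11.17, 11.81 and 12.29 in the nodules, against 4.81, 5.18 and 5.73 in control liver, where 2 arrays were above background (6.60 ± 0.34). Gsta4 (1.94) and Gsta2 (1.61), of the same class, rose by less, and the mu-class Gstm7 (-1.91) was the member that fell. Among the 31 genes of glutathione and thioredoxin metabolism and of the NRF2 response to oxidative stress, 23 were higher, 3 lower and 5 did not pass, with 13 at least 2-fold higher and none as much lower. Gpx2, a glutathione peroxidase of the gut, had 11.51, 11.88 and 12.51 in the nodules, against 5.18, 5.55 and 7.03 in control liver, where 5 arrays were above background (6.18 ± 0.37). Both subunits of the enzyme that makes glutathione, Gclc (3.62) and Gclm (2.83), its ligase partner Gss (1.99) and the reductases Gsr (2.53), Txnrd1 (2.98) and Nqo1 (4.48) were higher. Gpx1 (-0.85), the main liver peroxidase, was lower.

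The starts of 3 of these genes are shown because they were the largest rises whose promoters hold the core of the antioxidant response element, to which NRF2 binds. The sequences are those of RefSeq on build GRCr8, 300 bases around the annotated start, 5' to 3' on the strand of the gene, with the core (TGACNNNGC on either strand) in capitals. Gstp1 lies at chr1:210769656-210769955 (minus strand), Gsta3 at chr9:31154739-31155038 (plus strand) and Gpx2 at chr6:101229984-101230283 (minus strand).
Gstp1: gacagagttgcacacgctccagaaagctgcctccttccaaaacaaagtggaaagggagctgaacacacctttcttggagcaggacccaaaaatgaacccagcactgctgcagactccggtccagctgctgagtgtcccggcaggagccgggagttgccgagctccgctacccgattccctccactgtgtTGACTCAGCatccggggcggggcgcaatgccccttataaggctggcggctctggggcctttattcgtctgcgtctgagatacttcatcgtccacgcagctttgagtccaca
Gsta3: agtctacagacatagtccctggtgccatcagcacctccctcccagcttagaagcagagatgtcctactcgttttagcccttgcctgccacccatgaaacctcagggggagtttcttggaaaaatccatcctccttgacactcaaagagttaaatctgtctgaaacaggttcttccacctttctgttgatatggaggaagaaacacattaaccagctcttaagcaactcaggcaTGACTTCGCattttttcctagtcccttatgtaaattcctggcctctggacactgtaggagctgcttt
Gpx2: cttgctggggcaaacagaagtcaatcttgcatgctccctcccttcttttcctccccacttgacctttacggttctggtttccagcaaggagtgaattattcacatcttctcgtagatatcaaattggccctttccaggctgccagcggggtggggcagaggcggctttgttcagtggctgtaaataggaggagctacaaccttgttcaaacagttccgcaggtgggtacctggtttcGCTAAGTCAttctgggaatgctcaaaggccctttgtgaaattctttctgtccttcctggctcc
The core began 61 bases before the start in Gstp1, 17 in Gsta3 and 13 in Gpx2, and in Gpx2 it was on the opposite strand. It was found in 90 of 474 promoters (19.0%) of genes at least 2-fold higher, in 49 of 375 (13.1%) of genes at least 2-fold lower, in 1011 of 6855 (14.7%) of all tested genes and in 3342 of 27457 (12.2%) of all promoters of this length. The windows of Nqo1, Gclc and Txnrd1 did not hold these letters. A match is a description of the sequence, not of binding.

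Aldo-keto reductases, which reduce aldehydes, ketones and steroids, went both ways, with 10 of 16 higher, 3 lower and 3 short of the threshold. Akr7a3 (5.24), which detoxifies aflatoxin aldehyde, Akr1c19 (3.47), Akr1c13 (2.33) and Akr1b1 (2.03) were higher, and Akr1b10, above background on no control array, was at least 2.46-fold higher. The steroid reductases Akr1c3 (-2.83) and Akr1c2 (-2.06) were lower. Of 24 glucuronosyl- and sulfotransferases and their helpers 12 were higher and 8 lower. Ugt1a6, which conjugates planar phenols, had 9.98, 10.78 and 11.48 in KRT-19-positive nodules, against 5.03, 5.50 and 6.39 in control liver, where 4 arrays were above background (5.15 ± 0.37). Ugt2b7 was at least 12.7-fold higher than in control liver, where no array was above background, and Ugdh (2.39), which makes the glucuronic acid donor, was higher. Sult1c3 (-1.96), a sulfotransferase, Nnmt (-1.85), which methylates nicotinamide, and Nat8 (-1.52), which acetylates cysteine conjugates, were lower. The aldehyde dehydrogenases of the cytosol Aldh1a1 (3.74) and Aldh3a1 (at least 6.24-fold, above background on no control array) were higher, whereas the aldehyde oxidase Aox3 was lower, with 5.17, 6.12 and 7.79 in the nodules, against 10.70, 10.85 and 11.26 in control liver (-4.79 ± 0.46). The exporters Abcb1b (5.70), which pumps out drugs, and Abcc3 (5.61), which carries glucuronides into blood, were higher and Abcc6 (-1.70) was lower.

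Oxidation and uptake moved the other way. Of 40 measured cytochromes P450 of families 1 to 4 and their reductase, 30 were lower, 3 higher and 7 did not pass (median -0.83), and 18 were at least 2-fold lower. Cyp3a9 had 7.19, 8.54 and 10.10 in KRT-19-positive nodules, against 11.52, 12.42 and 12.93 in control liver (-3.86 ± 0.37), Cyp4a2 (-3.32) hydroxylates fatty acids, and Cyp1a2 (-2.97) and Cyp3a23-3a1 (-2.96) oxidise drugs. The members that rose were Cyp2c12 (4.05), Por (1.76), the reductase that supplies electrons to all of them, and Cyp4f5, at least 2.46-fold higher than on control arrays, none of which was above background. Among 15 uptake carriers of the blood side 12 were lower, 1 higher and 2 did not pass. Slc22a8 (-2.61), an organic anion carrier, Slco1b2 (-2.07), which takes up bilirubin and thyroid hormone, and Slc10a1 (-1.36), the bile salt carrier, were lower, and Ust5r (-3.07), a transporter of the same superfamily, also fell. Close relatives such as the Cyp2c, Cyp3a and Gsta genes share sequence, and how far a probe binds a relative was not tested.

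Genes that differ between the sexes in rat liver were mostly of the male type and mostly lower, although all rats were male. Of 22 measured sex-dependent genes 15 were lower, 2 higher and 5 did not pass (median -1.32), and 13 were at least 2-fold lower. Obp3, a male-type secreted lipocalin, had 5.26, 8.08 and 10.33 in KRT-19-positive nodules, against 12.98, 13.46 and 14.12 in control liver (-5.53 ± 0.84, adjusted p = 2.36e-07). Cyp2c11, the main P450 of adult male liver, had 9.75, 11.85 and 13.44 in the nodules, against 14.34, 14.59 and 15.23 in control liver (-3.04 ± 0.80, adjusted p = 0.00123). With nodule arrays 1 to 5 alone its difference was -2.28 and did not pass (limma adjusted p = 0.0538). Cyp2c12, the P450 typical of adult female liver, had 12.96, 13.33 and 13.77 in the nodules, against 7.94, 9.41 and 10.03 in control liver (4.05 ± 0.48, adjusted p = 6.08e-10). For these 3 genes no nodule array overlapped control, and of the 15 lower genes 12 had no overlap. Car3 (-2.52), a carbonic anhydrase, and Hsd3b5 (-2.28), a steroid dehydrogenase, were also lower.

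The nodules varied widely among themselves in some of the lower genes and little in others and in Cyp2c12. The SD among the 10 nodules was 1.55 for Obp3 and 1.18 for Cyp2c11, against 0.29 for Cyp2c12. Among the 15 lower genes it ranged from 0.23 for Cyp7b1 to 1.55 for Obp3, with Rgn at 0.31. Nodule 3 had the highest level of 11 of the 15 lower genes, and nodule 6 had the lowest of 6. Nodule 3 was at 10.33 for Obp3 and 13.44 for Cyp2c11, still below every control array, and nodule 6 was at 5.26 and 9.75. Nodule 3 is among arrays 1 to 5 and nodule 6 among arrays 6 to 10, and the part of a batch in this spread was not tested. Growth hormone is the known regulator of this pattern, and its part in these differences was not tested. Genes of its pathway and of IGF and insulin signalling went both ways. The receptor Ghr had 6.84, 7.59 and 8.16 in the nodules, against 8.52, 8.87 and 9.64 in control liver (-1.33 ± 0.21). Stat5b (-1.01), the factor that carries the male signal, its target Socs2 (-2.05) and Igfals (-1.93), the partner of circulating IGF, were lower. Igfbp3 (2.32), another partner of IGF, was higher, and the insulin receptor substrate Irs3 had 5.44, 5.76 and 6.10 in the nodules, against 8.60, 9.75 and 10.19 in control liver (-3.79 ± 0.17). In all 5 of 24 growth hormone, IGF and insulin genes were higher and 9 lower (median -0.04), beside 24.8% and 23.9% of all features. At least 2-fold, 4 were higher and 8 lower.

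**Figure D3:**
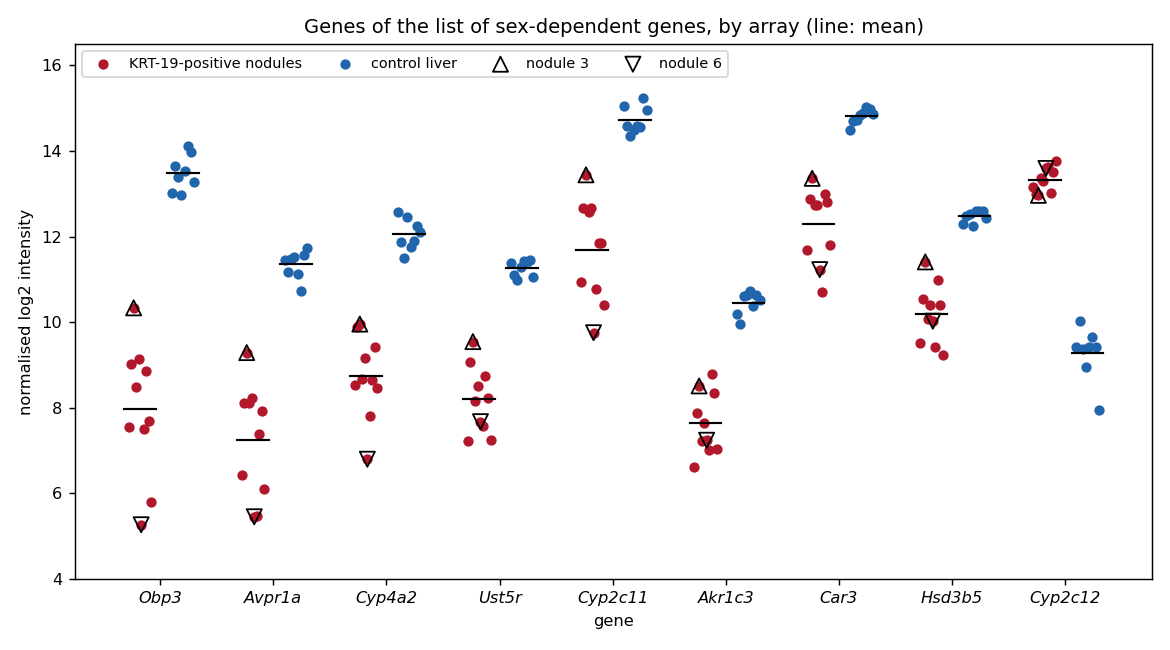
Normalised log2 intensity of 8 lower genes of the sex-dependent list and of Cyp2c12, with KRT-19-positive nodules (red, n = 10) left of control liver (blue, n = 8) for each gene, lines at the means, and triangles at nodules 3 (point up) and 6 (point down). Cyp2c12 runs against the other genes, with all nodules at 12.96 or more and all controls at 10.03 or less.

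Enzymes that break down amino acids were lower across the pathway. Of 53 measured 41 were lower, 5 higher and 7 did not pass (median -0.70), and 15 were at least 2-fold lower against 1 higher. Hao2, an oxidase of hydroxy acids, had 8.05, 9.35 and 10.29 in KRT-19-positive nodules, against 11.94, 12.18 and 12.76 in control liver (-2.97 ± 0.37). Hal (-2.37), which deaminates histidine, Agxt (-2.28), the glyoxylate transaminase, Gnmt (-1.99), Kynu (-1.79) and Cth (-1.40), which act on methyl groups, tryptophan and cysteine, were lower. Hibch (1.30), of valine breakdown, was the single member at least 2-fold higher. Of 15 genes of the urea cycle and ammonia handling 11 were lower, among them Oat (-2.63), Nags (-1.79), which makes the activator of the cycle, and the glutamate carrier Slc1a2 (-1.31). Rhbg (3.01), an ammonium channel, and Arg1 (0.27), the final enzyme of the cycle, were higher, although the call of Arg1 was lost when any of 11 arrays was left out (0.20 without control array 8, limma adjusted p = 0.142).

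The blood proteins that hepatocytes secrete were mostly lower, and albumin was not called. Of 33 genes of coagulation and fibrinolysis 22 were lower and 7 higher (median -0.48), but only 3 were at least 2-fold lower, namely F10 (-1.48), F11 (-1.46) and Pros1 (-1.05). Those higher included Procr (1.35), the receptor of protein C, and F3 (1.13), tissue factor, which are proteins of the cell surface. Of 28 complement genes 16 were lower, with C6 (-2.31), of the membrane attack complex, and the lectin Mbl2 (-2.07) the furthest. The 5 that were higher were Clu (0.87), Cr1l (0.52) and the C1q chains C1qc (0.73), C1qb (0.58) and C1qa (0.42), which macrophages make. With each array's count of detected probes as a covariate C1qa was 0.21 (limma adjusted p = 0.283), and it was also lost under 4 other alternatives. Alb (0.07 ± 0.12, adjusted p = 0.636) had 14.12, 14.75 and 15.15 in KRT-19-positive nodules, against 14.10, 14.78 and 14.90 in control liver. It was called higher with each array's count of detected probes as a covariate (0.45, limma adjusted p = 0.00055) and with nodule arrays 6 to 10 alone (0.40, limma adjusted p = 0.00538). Ttr (-0.30, adjusted p = 0.0191), which carries thyroid hormone in blood, and Afp (-1.15), the fetal relative of albumin, were lower. Leaving out nodule 1 or nodule 7 ended the call of Ttr (-0.24 without nodule 1, limma adjusted p = 0.056). Both Alb and Ttr lay close to the top of the scale in both groups.

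Most lists of lipid genes leaned to lower levels. Of 24 genes of fatty acid synthesis and storage 18 were lower and 3 higher, of 18 genes of cholesterol synthesis and uptake 13 were lower and 1 higher, and of 33 genes of peroxisomal and omega-oxidation 21 were lower and none was higher. Mitochondrial beta-oxidation had 20 of 33 lower and 7 higher, with 4 at least 2-fold higher and 4 as much lower. Insig2 (-2.15), which restrains sterol synthesis, Elovl2 (-1.60), an elongase of polyunsaturated fatty acids, and Crot (-2.55), which exports products of peroxisomal oxidation, were among those lower. The desaturase Scd2, a form of brain rather than adult liver, had 9.68, 10.14 and 11.17 in KRT-19-positive nodules, against 6.19, 6.72 and 7.33 in control liver (3.48 ± 0.29). Cidea, a protein of lipid droplets in brown fat, had 10.57, 10.97 and 11.30 in the nodules, against 6.76, 7.20 and 8.78 in control liver (3.51 ± 0.23). Of 26 apolipoproteins and lipid carriers 15 were lower and 6 higher. Angptl4, an inhibitor of lipoprotein lipase, had 5.59, 6.35 and 7.47 in the nodules, against 10.70, 10.92 and 11.31 in control liver (-4.54 ± 0.22), while the lipase itself, Lpl (1.72), was higher. The lysolipid carrier Mfsd2a (-3.35), the fatty acid carrier Fabp7 (-3.03) and the apolipoproteins Apom (-2.35), Apoc2 (-2.14) and Apoa5 (-2.09) were lower.

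Of 23 glycolysis genes 8 were higher and 6 lower (median 0.02), near the shares of all features, 24.8% and 23.9%. The muscle and platelet phosphofructokinases Pfkm (1.59) and Pfkp (1.31) and the aldolase Aldoa (1.40) were higher, whereas Pklr (-1.68), the pyruvate kinase of liver, Khk (-0.81), which phosphorylates fructose, and Ldha (-0.93) were lower. The regulators of pyruvate dehydrogenase differed too, with the kinase Pdk4 (-2.71) lower and Pdk3 (1.51) higher. Me2 (2.13), the mitochondrial malic enzyme, was higher and Me3 (-2.53) was lower. Slc25a4, the ADP/ATP carrier of heart and muscle, had 11.69, 12.53 and 12.67 in KRT-19-positive nodules, against 8.18, 8.79 and 9.03 in control liver (3.67 ± 0.35), and Taldo1 (1.57), of the pentose phosphate pathway, was higher.

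Among 27 liver-enriched and immediate-early transcription factors 14 were lower and 6 higher. Atf5 (-2.09), which is abundant in adult liver, the pioneer factors Foxa1 (-1.86) and Foxa3 (-1.79), Creb3l3 (-1.72), Onecut1 (-1.60) and Cebpa (-1.47) were lower, Onecut1 not with nodule arrays 1 to 5 alone (-0.71, limma adjusted p = 0.14). Hnf4a, the central factor of hepatocyte identity, had 6.11, 6.30 and 7.31 in KRT-19-positive nodules, against 5.00, 6.87 and 7.25 in control liver (-0.22 ± 0.22, adjusted p = 0.428), and its 2 groups overlapped. Myc, a driver of growth, had 9.47, 9.91 and 10.38 in the nodules, against 6.15, 6.70 and 8.15 in control liver (3.12 ± 0.26, adjusted p = 1.52e-14). Sox4 (2.45), of progenitor cells, Klf6 (1.98) and Atf3 (1.78) were higher. The bile acid receptor Nr1h4 (-1.57) and the thyroid hormone receptor Thrb (-0.95) were lower among 29 nuclear receptors and partners, of which 13 were lower and 3 higher. Thrb was not called with scaling by the array median (-0.47, limma adjusted p = 0.0579).

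The promoters of a pair of lower genes are shown because they hold a core of the HNF4 site (CAAAGTCCA on either strand), given in capitals, on the same build. Cyp3a23-3a1 lies at chr12:14398754-14399053 (minus strand) and Baat, which joins bile acids to glycine and taurine and was lower (-1.37), at chr5:68656088-68656387 (minus strand).
Cyp3a23-3a1: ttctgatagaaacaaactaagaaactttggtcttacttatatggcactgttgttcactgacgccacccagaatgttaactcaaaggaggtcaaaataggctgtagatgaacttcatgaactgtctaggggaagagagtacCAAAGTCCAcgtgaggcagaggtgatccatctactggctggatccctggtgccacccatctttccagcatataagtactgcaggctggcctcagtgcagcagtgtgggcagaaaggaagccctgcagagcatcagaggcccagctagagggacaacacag
Baat: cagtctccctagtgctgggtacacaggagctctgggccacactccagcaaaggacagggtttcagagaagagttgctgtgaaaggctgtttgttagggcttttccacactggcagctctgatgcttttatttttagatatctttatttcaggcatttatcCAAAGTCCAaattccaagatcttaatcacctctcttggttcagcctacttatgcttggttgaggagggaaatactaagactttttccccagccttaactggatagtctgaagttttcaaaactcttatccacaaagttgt
The core began 110 bases before the start in Cyp3a23-3a1 and 90 in Baat. It was found in 6 of 375 promoters (1.6%) of genes at least 2-fold lower, in none of 474 of genes at least 2-fold higher, in 29 of 6855 (0.423%) of all tested genes and in 103 of 27457 (0.375%) of all promoters. Counts this low are given as a description. Of the other 4 motifs searched on both strands, the site of CCAAT/enhancer-binding proteins (TTGCNNAA) was in 12.3% of the promoters of lower genes, 8.65% of those of higher genes and 10.5% of all, whereas a direct repeat of nuclear receptor half-sites, a serum response factor site with a fixed core and an E2F site (TTTCGCGC) were in 0.699%, 0.0401% and 0.342% of all promoters.

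Genes of the cytoskeleton and of membrane-binding calcium proteins were higher in a large share. Of 40 actin and tubulin genes 28 were higher, 2 lower and 10 did not pass (median 0.68), and 14 were at least 2-fold higher against none lower. Tubb6 had 10.41, 10.95 and 11.57 in KRT-19-positive nodules, against 4.99, 6.42 and 6.94 in control liver (4.69 ± 0.32). Myh10 (2.80), a nonmuscle myosin, Ezr (2.27), which ties actin to the membrane, Stmn1 (2.23), which takes apart microtubules, and Tagln2 (2.17) were higher, and Vil1, of microvilli, was at least 3.38-fold higher than in control liver, where no array was above background. Of 20 annexins and S100 proteins 13 were higher and 1 lower. Anxa2 had 10.28, 11.04 and 11.44 in the nodules, against 6.33, 6.82 and 7.39 in control liver (4.14 ± 0.29), and S100a11 (4.03), Anxa5 (3.78), S100a6 (3.04) and Anxa1 (3.04) followed. The neutrophil gene S100a8 (-0.73) was the member that was lower, and its call was lost when any of 9 arrays was left out (-0.64 without control array 6, limma adjusted p = 0.0823). Junction genes did not move as a whole, with 8 of 25 higher and 8 lower (median 0.005), beside 24.8% and 23.9% of all features. The liver-intestine cadherin Cdh17 (-4.13), Cldn1 (-2.30) and the gap junction gene Gjb1 (-1.60) were lower and Cdh13 was at least 1.83-fold higher. E-cadherin, Cdh1 (0.45, adjusted p = 0.0881), did not pass, but was called without control array 5 (0.56, limma adjusted p = 0.0394) or 6 (0.58, limma adjusted p = 0.0272).

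Of 22 measured markers of bile duct and progenitor cells other than Krt19, 15 were higher, 1 lower and 6 did not pass. Cd24 had 10.87, 11.21 and 11.60 in KRT-19-positive nodules, against 6.07, 7.26 and 7.37 in control liver (4.17 ± 0.30), and Epcam (3.07), Tnfrsf12a (2.56), the TWEAK receptor, St14 (2.04), a membrane protease, and Cd44 (1.73) were higher. Slc4a2 (-1.08), the bicarbonate exchanger of bile ducts, was lower. In bulk tissue, more cells of a type and more RNA per cell cannot be told apart. The summed log2 level of the bile duct markers Epcam, Aqp1, Sctr and Tff3 was 10.96 to 11.84 in the nodules, against 8.92 to 9.22 in control liver, with Epcam and Tff3 higher, Aqp1 and Sctr short of the threshold and Tff3 above background on no control array, and the part of bile duct cells in these differences was not tested.

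Many matrix genes and most markers of stellate cells and fibroblasts were higher. Of 19 listed markers of these cells 12 were higher, 5 lower and 2 did not pass. Of 42 genes of the extracellular matrix, its proteases and inhibitors 22 were higher, 7 lower and 13 did not pass. Mmp12, a protease of macrophages, had 8.59, 9.70 and 10.90 in KRT-19-positive nodules, against 4.78, 5.10 and 6.02 in control liver, where 2 arrays were above background (4.34 ± 0.41). Mgp (3.23), the crosslinker Lox (1.86) and Col4a1 (1.64), of basement membrane, were higher, and Loxl1 was at least 3.68-fold higher than on control arrays, none of which was above background. The summed log2 level of 5 stellate cell and fibroblast markers was 12.24 to 13.46 in the nodules, against 10.54 to 11.11 in control liver, with 4 higher and Des (-0.57) lower, though Des was not called with scaling by the array median (-0.10, limma adjusted p = 0.651), and the part of these cells in the matrix genes was not tested. Among matrix receptors, Ddr1, a receptor of collagen, was at least 4.84-fold higher, since no control array was above background, and Gpc3 (2.38), a glypican known as a marker of liver cancer, Itgb1 (1.16) and Cd151 (1.17) were higher, while Sdc2 (-1.27) and Itga7 (-1.17) were lower.

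Of 27 genes of the TGF-beta family 11 were higher and 6 lower, the lower share near the 23.9% of all features. The ligand Tgfb2 was at least 3.99-fold and its binding protein Ltbp2 at least 5.23-fold higher, with no control array above background for either, and Ltbp1 (2.06), Gdf15 (2.14) and Bambi (1.37) were higher. The activin subunits of liver fell, with Inhbc (-2.53) lower and Inhba, above background on no KRT-19-positive array, at least 5.48-fold lower. Of 16 genes of the Hippo pathway and its YAP targets 10 were higher and 1 lower, among them Ccn2 (1.49) and Ccn1 (1.25). Among 26 growth factors and their receptors 11 were lower and 4 higher. Egfr had 5.39, 5.86 and 6.57 in KRT-19-positive nodules, against 7.67, 8.06 and 8.96 in control liver (-2.29 ± 0.22), its ligand Egf (-2.06) was lower, and Pdgfa (1.52) was higher.

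Genes of protein synthesis rose by small and even steps. Of 56 cytosolic ribosomal proteins 50 were higher, 1 lower and 5 did not pass (median 0.52), but only 2 were at least 2-fold higher. Rpl5 had 6.35, 7.01 and 7.56 in KRT-19-positive nodules, against 4.84, 5.36 and 5.97 in control liver, where 4 arrays were above background (1.62 ± 0.23), Rpl17 (1.15) was the other, and Rps24 (-0.46) was lower. With scaling by the array median Rps24 was at 0.09 and not called, 31 of the 56 were called higher and the median of the list was 0.35, beside a median of 0.22 for all features. Of 44 translation factors 22 were higher and 9 lower, led by Eif2b2 (1.37), of the exchange factor that restarts initiation, and Eif4ebp1 (1.28), which restrains it. Cytosolic chaperones were higher for 17 of 28 and lower for 2, with the small heat shock protein Cryab (4.14) far ahead of the chaperonin subunits Cct2 (1.05) and Cct5 (0.85). Of 66 genes of the respiratory chain 5 were higher and 13 lower, of 57 mitochondrial ribosomal proteins 12 were higher and 12 lower, and of 39 proteasome genes 10 were higher and 7 lower, shares near or below the 24.8% and 23.9% of all features, and among these 3 lists only Psmd9 (-1.26) differed by at least 2-fold. Polyamine synthesis was higher at its first step, Odc1, which had 9.08, 9.36 and 9.84 in the nodules, against 4.53, 4.66 and 8.29 in control liver (3.91 ± 0.30). Its control arrays fell apart, as arrays 1 and 2 were at 8.29 and 7.85 and no other control array was above background.

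**Figure D4:**
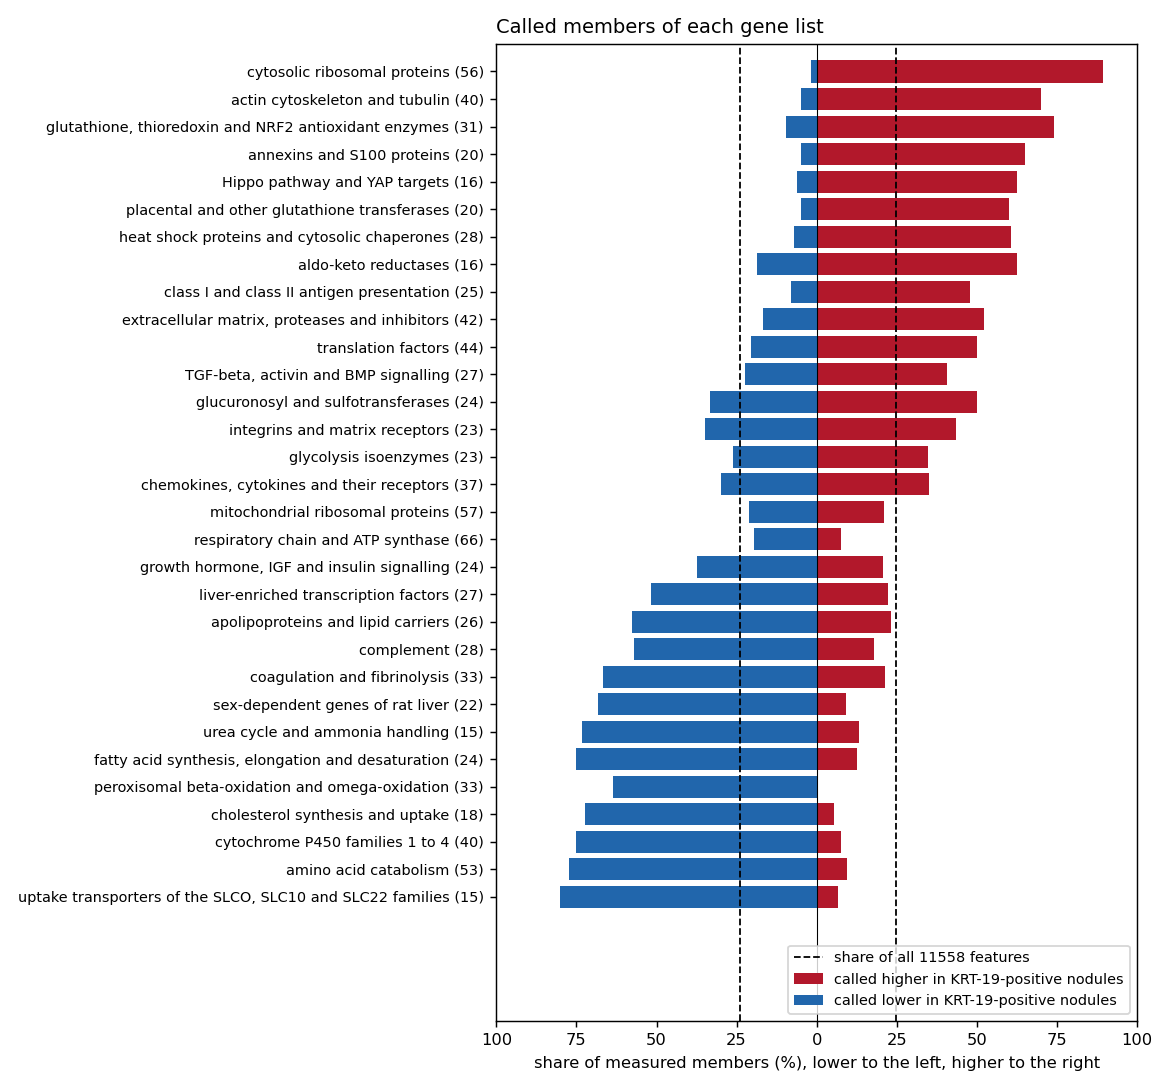
Share of the measured members (number in brackets) of 31 gene lists called higher (red, to the right) or lower (blue, to the left) in KRT-19-positive nodules when set against control liver, with dashed lines at the shares of all 11558 features (24.8% higher and 23.9% lower). Ribosomal proteins, cytoskeleton and antioxidant enzymes are mostly higher and uptake carriers, amino acid catabolism and cytochromes P450 mostly lower.

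Genes of the cell cycle were modestly higher. Of 35 DNA replication genes 18 were higher and 5 lower, and of 43 mitosis genes 26 were higher and 2 lower. Prc1 (1.64) and Ccnb2 (1.62), of cell division, were among those higher, and Ccnf (-1.45) and Cks1b (-0.80) were lower. In the list of G1 genes, which also holds Myc, 10 of 21 were higher and 3 lower, among them the antiproliferative Btg3 (2.53), Cdkn3 (1.80) and Ccnd1 (1.08), the cyclin that opens the cycle. Of 31 p53 targets and apoptosis genes 12 were higher and 5 lower, including Mdm2 (1.09), Ccng1 (1.08) and Bak1 (1.14).

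Of 25 genes of class I and class II antigen presentation 12 were higher, 2 lower and 11 did not pass. Cd74, the invariant chain, had 11.13, 11.71 and 12.29 in KRT-19-positive nodules, against 9.69, 9.89 and 11.76 in control liver (1.50 ± 0.25), where a single array overlapped the nodules, and RT1-Db1 (1.44) and RT1-Ba (1.28) were higher. The chemokines Cx3cl1 (2.93), Cxcl16 (2.66) and Ccl19 (1.88) were higher and Cxcl12 (-1.68) was lower. Of 26 macrophage markers 10 were higher, 3 lower and 13 did not pass (median 0.31). Marco, a scavenger receptor of resident macrophages, had 5.89, 7.01 and 8.22 in the nodules, against 9.93, 10.33 and 10.82 in control liver (-3.21 ± 0.33), whereas Lgmn (2.62), Trem2 (1.25, above background on 1 control array) and Gpnmb (0.96), of lipid-laden and tissue macrophages, were higher. The summed log2 level of Marco, Cd163 and Vsig4, the 3 markers of resident macrophages that could be tested and the 3 lower members of the list, was 8.62 to 10.53 in the nodules, against 10.83 to 11.54 in control liver, whereas that of all 26 was 14.59 to 15.30 in the nodules, against 14.30 to 14.98 in control liver. Cd163 (-0.32) lost its call when any of 10 arrays was left out and was 0.21 with scaling by the array median, under which Vsig4 (-0.33, limma adjusted p = 0.24) was not called either. Of 19 lymphocyte and natural killer cell markers 2 were higher, 4 lower and 13 did not pass. Both shares were below those of all features, 24.8% and 23.9%. The T cell genes Cd3g (0.88) and Cd3d (0.82) were higher, and Gzma (-1.65) and Prf1 (-0.79), of cytotoxic granules, were lower. Cd3g was above background on 6 control arrays and Cd3d on 2. The summed log2 level of 5 T and natural killer cell markers overlapped, at 8.47 to 9.28 in the nodules, against 8.62 to 9.57 in control liver. Of these 5 markers only 2 were higher. Cd3g was not called with each array's count of detected probes as a covariate (0.58, limma adjusted p = 0.0579), nor Prf1 with scaling by the array median (-0.23, limma adjusted p = 0.333). Summed, the globin genes Hbb and Hba-a1 reached 12.34 to 13.76 in the nodules, against 14.10 to 15.41 in control liver, and the part of blood in the other immune genes was not tested.

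**Figure D5:**
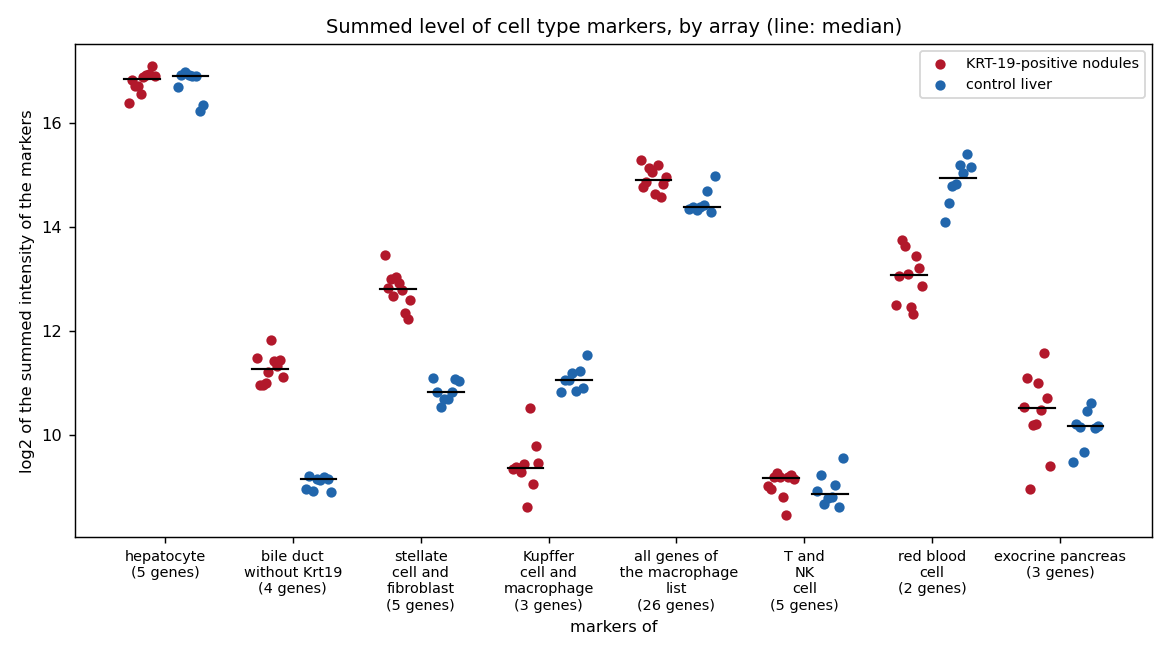
Log2 of the summed intensity of the markers of 7 cell types and of the whole macrophage list on each array, with KRT-19-positive nodules (red, n = 10) left of control liver (blue, n = 8) and lines at the medians. Bile duct markers without Krt19 and stellate cell markers are higher and red blood cell markers and 3 resident macrophage markers lower in the nodules with no overlap, whereas hepatocyte markers and the sum of all 26 macrophage markers overlap.

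Some genes of other organs were among those higher. The pancreatic enzymes Ctrc and Cpa1 were higher. Ctrc had 7.55, 8.71 and 10.79 in KRT-19-positive nodules, against 4.76, 5.32 and 6.53 in control liver, where 2 arrays were above background (3.57 ± 0.36), and Cpa1 was 9.87-fold higher (3.30 ± 0.43). Cela1, an elastase of the same gland (4.01-fold), and Ctrl (-0.88) were lower, so the list did not move as a whole, with 2 of 8 higher and 3 lower. Of 11 neuronal genes 4 were higher, namely Nefl, Pcp4, Nefm (1.31) and Eno2 (at least 1.29-fold), while Npy (-1.32) and Cplx1 (-0.46) were lower, Cplx1 not without control array 3 (limma adjusted p = 0.0657). Stmn2, a general marker of neurons, was above background on 4 nodule arrays and no control array, with a difference of 0.03 (adjusted p = 0.84). The ferroxidase Heph (3.37), which with the iron exporter Slc40a1 (1.43) passes iron out of gut cells, was higher, and the transferrin receptor Tfr2 (-1.15) of hepatocytes was lower. In eicosanoid metabolism Ptgr1 (3.52), which inactivates leukotriene B4, was higher and Ltc4s (-2.53), which makes leukotriene C4, was lower.

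The genes that varied most among the 10 KRT-19-positive nodules were Krt12, Gsta1, Mup4l3, Obp3, Dnaaf1, Ybx1, Avpr1a and Bcl6, with SDs of 2.44, 1.75, 1.73, 1.55, 1.52, 1.45, 1.31 and 1.30. Krt12, a keratin of the cornea, was at 10.22, 10.85 and 9.34 in nodules 3, 4 and 5 and at 5.31 or below in all others, and its call against control (1.26, adjusted p = 0.0388) was lost when any of those 3 was left out (0.79 without nodule 4, limma adjusted p = 0.134) or when any of 5 control arrays was. Gsta1, Ybx1 and Bcl6 followed the title numbers, as each had a higher level on all of nodule arrays 6 to 10 than on any of arrays 1 to 5, and none was called against control (adjusted p = 0.347, 0.874 and 0.41). With nodule arrays 6 to 10 alone Gsta1 (2.20) and Ybx1 (1.46) were called higher, and with arrays 1 to 5 alone Ybx1 (-1.26) and Bcl6 (-1.71) were called lower. Gsta1 (1.54) and Ybx1 (1.46) were also called higher with each array's count of detected probes as a covariate. Dnaaf1, an assembly factor of cilia, was spread over both sets, between 5.35 and 9.85, and was at least 3.92-fold higher than in control liver, where no array was above background. Avpr1a, the vasopressin receptor of pericentral hepatocytes, is itself among the lower genes of the sex-dependent list counted above. Nodule 3 was highest and nodule 6 lowest for Avpr1a and for Mup4l3. Avpr1a also differed by title number, with a mean of 8.03 on nodule arrays 1 to 5 and 6.47 on arrays 6 to 10 (limma adjusted p = 0.0228).

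The test against KRT-19-negative nodules (n = 10) showed which of these differences were larger than in other nodules. Of 11558 features 3706 (32.1%) differed between the 2 kinds of nodule, with 2005 (17.3%) higher and 1701 (14.7%) lower in the KRT-19-positive kind. The largest rises among genes called against control, Krt19 aside, were Nefl, Defb1, Pla2g7, Ctse, Abcb1b, Akr1b8, Ctrc, Rab7b and Ampd3. Nefl was between 10.49 and 13.30 in KRT-19-positive and between 4.49 and 8.11 in KRT-19-negative nodules, a log2 difference of 5.96 ± 0.61 (limma adjusted p = 2.06e-10). Rab7b, a small GTPase of late endosomes, was between 7.94 and 9.20 in KRT-19-positive and between 4.73 and 7.81 in KRT-19-negative nodules, and Ampd3, an AMP deaminase, was between 8.03 and 9.56 in KRT-19-positive and between 4.63 and 7.33 in KRT-19-negative nodules. For these 3 genes, chosen for the size of this same difference, the 2 kinds of nodule did not overlap. The share of all features without such overlap was not counted. Pla2g7 was between 8.35 and 11.86 in KRT-19-positive and between 4.79 and 8.36 in KRT-19-negative nodules so that the ranges only just overlapped.

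Gstp1 and Gimd1 did not separate the 2 kinds of nodule. Gstp1 was between 14.35 and 15.27 in KRT-19-positive and between 9.25 and 15.18 in KRT-19-negative nodules, a log2 difference of 1.23 ± 0.50 that did not pass (limma adjusted p = 0.0539), near the top of the scale. Gimd1, at 4.66 to 5.33 in KRT-19-positive and 4.87 to 6.02 in KRT-19-negative nodules, differed by -0.34 ± 0.20 (limma adjusted p = 0.184), and it was above background on 2 arrays of each kind of nodule and on all 8 control arrays. The largest falls against KRT-19-negative nodules were Obp3 (difference between the nodules -2.71), Dhrs7l1 (-2.58), Mup4l3 (-2.54), Cyp4a2 (-2.51), Avpr1a (-2.46), Cyp8b1 (-2.42), Olr59 (-2.37), Mfsd2a (-2.26), Cyp3a23-3a1 (-2.18) and Sez6 (-2.17). The counts that follow are of KRT-19-positive against KRT-19-negative nodules. Of 40 cytoskeletal genes 29 were higher and none lower, of 53 genes of amino acid catabolism 37 were lower and 3 higher, and of 40 cytochromes P450 27 were lower and 3 higher. Of 56 ribosomal proteins 37 were higher and 1 lower, and of 22 sex-dependent genes 16 were lower and 1, Cyp2c12, higher.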

How the data were processed

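Total RNA of rat liver was labelled with biotin and hybridised to 1-colour Illumina bead arrays, per the labels' protocols. The deposited table holds, per probe and array, an intensity that was not normalised and a detection p-value, exported with BeadStudio 3.0.19.0 per the submitters' processing notes. A second deposited table holds the authors' normalised intensities, whose method of normalisation is not given in the sources used here. Its values were put on the log2 scale and used only as an alternative. Groups were taken from the sample titles. The neqc function of limma 3.58.1 (R 4.3.3) removed background by a normexp model that reads it off the detection p-values, added an offset of 16, quantile-normalised the arrays and took log2. A probe was retained if 8 arrays or more gave it a detection p-value under 0.05 (11723 of 22523 probes), and each gene was represented by its probe of highest mean. Of 22523 probes 13793 had 1 gene symbol in the platform annotation and 8730 had none. Differences were tested with limma (lmFit over all 48 arrays, eBayes with trend), with Benjamini-Hochberg adjustment over 11558 features. A gene above background on no array of a group is given as "at least" a fold, the mean of the other group over the lowest signal above background. The fit was also run on simulated data, with results not reported here. Promoter sequences came from RefSeq, build GRCr8.

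The gene lists and named genes were chosen with earlier results of these data known. The text names the 20 largest rises and falls whose arrays did not overlap (not all described), up to 8 called members per list and direction, the 8 genes of largest SD among the nodules, the 10 largest rises and falls against KRT-19-negative nodules, and a short set of liver and nodule genes. Title numbers did not pair nodules and controls, since of 8 same-numbered pairs 1 had a correlation of deviations over 0.1 (range -0.205 to 0.26). The 12 alternatives and the 28 arrays left out in turn are given in the closing section.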

Additional observations from a re-analysis of the deposited data

Results flagged for a closer look

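Of 492 groups of arrays (each named gene in KRT-19-positive nodules and in control liver), 28 held an array set apart from the others of its group by Dixon's criterion, where chance marks about 1 in 20 groups. Among KRT-19-positive nodules there were 13, of which 5 were in nodule 7. Nodule 7 was high for Cd163 (8.57), Vsig4 (9.68), Itgb1 (11.43) and Ugt2b7 (11.23) and low for Slc4a2 (7.67). Nodule 6 was high for Nefm (8.86) and low for Itga7 (5.13), and nodule 1 was high for Loxl1 (8.29) and low for Sdc2 (11.38). Single genes stood apart in nodule 3 (Pros1, high at 10.82), nodule 5 (Gstp1, low at 14.35), nodule 8 (Hnf4a, high at 7.31) and nodule 10 (Ltbp2, low at 6.37).

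Among control arrays there were 15, of which 6 were in array 8. Control array 8 was high for Cd74 (11.76), RT1-Ba (11.15), C1qb (12.14), C1qc (11.9) and Pdk3 (5.39) and low for Cd24 (6.07). Control array 2 was high for Egf (10.53), F3 (6.71) and Nefl (4.88, not above background) and low for Foxa3 (8.62) and Gsta2 (12.13). Control array 3 was high for Ctrc (6.53) and low for Hnf4a (5.0) and Tubb6 (4.99), and control array 5 was high for Gpx2 (7.03).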

How the results depend on the processing

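The number of features that differed from control liver, 5629, ranged from 4918 to 5847 over the 12 alternatives and from 5390 to 5629 when 1 array was left out. The number at least 2-fold different, 1348, fell to 707 with quantile normalisation without background correction and to 714 with the deposited value table, was 1247 to 1741 under the other alternatives, and was 1290 to 1386 with 1 array left out. Background left in the signal compresses folds by construction. The 3706 features that differed from KRT-19-negative nodules ranged from 2720 to 4597, and from 3378 to 3963 with 1 array left out. Scaling by the array median gave 4306 higher and 1205 lower (78.1% higher, against 51%), with the median of all features at 0.22. The same scaling called 8 rather than 13 cholesterol genes, 7 rather than 13 nuclear receptors, 7 rather than 11 growth factor genes and 7 rather than 13 respiratory chain genes lower, and 20 rather than 12 mitochondrial and 31 rather than 50 cytosolic ribosomal proteins higher. Among 246 named genes the direction reversed there for Cd163 (0.21) and Rps24 (0.093), and the cause was not tested. With replicate block in the fit, 4918 features differed, 1370 at least 2-fold, and 2922 from KRT-19-negative nodules, and Arg1, C1qa, Cd163, Krt12, S100a8 and Ttr lost their call. Of the named genes called, the difference moved by over 3/2 times for 74 without background correction, 73 with the deposited value table, 18 with scaling by the array median, 17 with each array's count of detected probes as a covariate and 1, Angptl4 (-2.90), with the mean of all probes of a gene. With each array's count of detected probes as a covariate Bak1 (0.56), C1qa (0.21), Cd3g (0.58), Des (-0.36), Krt12 (0.59), Rps24 (-0.083), Ttr (-0.24) and S100a8 (-0.82) lost their call, and with scaling by the array median Arg1, C1qa, Cplx1, Ctrl (-0.44), Des, Prf1, S100a8, Thrb and Vsig4 did. Alternatives with nodule arrays 1 to 5 or 6 to 10 alone, added after seeing the data, gave 5047 and 4749 features, with Ybx1 at -1.26 in the first and Krt12 at -0.28 in the second, both reversed. Signal near background limits genes at low levels. Bounds are given only for genes above background on no array of a group. The 42 named genes above background on some control arrays only are given with fitted differences, which depend on the background.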
